A study of Mus musculus with 20 samples.

Results

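Endothelial-marker nuclei made up 396 of the 160777 nuclei (0.246%) recovered from the hippocampi of 20 mice. They were chosen by their counts of unique molecular identifiers (UMIs), each of which stands for 1 captured RNA molecule. A nucleus was taken when Flt1, Cldn5, Mecom and Slco1a4 together gave at least 3 UMIs and at least 2 of these 4 genes were present. It could hold at most 1 UMI of Gad1, Gad2, Prox1 and Fibcd1 together, at most 1 UMI of Rgs5, Pdgfrb and Atp13a5 together, and 0 UMIs of Mog, Pdgfra, Aqp4 and Csf1r. The levels of these genes were therefore fixed by the choice and are given as description only.

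All mice were males aged 4.5 to 5.5 months, either APP/PS1 (APPSwe/PS1ΔE9, here fAD) or wild-type (WT) littermates, and each gave 1 single-nucleus library from frozen hippocampus. The labels state perfusion with cold saline before dissection, whereas the methods name decapitation. The labels gave 6 WT-Awake mice and 3 fAD-Awake mice, 3 WT-ISO and 4 fAD-ISO mice, and 2 mice each of WT-KETA and fAD-KETA. The study's own texts give other numbers of mice for some groups, and the sample labels were followed. ISO stands for 3 h under isoflurane, started at 5% and lowered to 1.5%, and KETA for 3 h under ketamine at 150 mg/kg with xylazine at 12 mg/kg. The awake mice had neither drug, and the ketamine mice had xylazine as well, so the effects of these 2 drugs cannot be told apart. The study asked how anesthesia alters the hippocampus of the 2 genotypes. Here the question is what differed between the states in the few endothelial-marker nuclei.

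Brain endothelial cells line the capillaries and form the blood-brain barrier. Tight junctions seal the gaps between them, solute carriers bring glucose and amino acids to the brain, and efflux pumps of the ABC family return drugs and lipids to the blood. VEGF receptors, the angiopoietin receptor Tie2, Notch and TGF-beta receptors keep the vessel wall in shape, and Wnt/beta-catenin signalling keeps its barrier genes on. Flt1 is a VEGF receptor, Cldn5 the main claudin of the barrier, Mecom a zinc-finger transcription factor and Slco1a4 an organic anion transporter.

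Of the 396 nuclei, 174 held 2 of the rule genes, 142 held 3 and 80 held all 4. The median sum of the rule genes was 7 UMIs and the highest 41. Flt1 was present in 314 nuclei, Mecom in 309, Slco1a4 in 307 and Cldn5 in 164. The nuclei were shallow, with a median of 981 UMIs and 728 genes, and 591461 UMIs in all.

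The label was checked against 26 endothelial identity genes outside the rule and against markers of 8 other cell classes. The rule gathered a mixture. In 68 nuclei, from 7 mice, at least 5 UMIs belonged to choroid plexus and ependymal markers, and 64 of these 68 had neither Flt1 nor Cldn5. Ttr, the transthyretin of cerebrospinal fluid, was not counted toward this cut, nor were Meg3 and Rbfox1 toward that of any list. All 68 had entered through Mecom, with Slco1a4 in 64, Flt1 in 3 and Cldn5 in 1. At least 5 UMIs of excitatory neuron markers stood in 60 nuclei, of astrocyte markers in 44 and of oligodendrocyte markers in 26, against 8 for mural cells, 8 for fibroblasts, 3 for microglia and macrophages and 2 for oligodendrocyte precursors.

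Setting aside the 168 nuclei with at least 5 UMIs of any such list left 228 (57.6%), with 192165 UMIs and a median of 706.5. In these 228 nuclei the 26 identity genes summed to 24651 CPM (UMIs of a gene scaled to a library of 1e6 UMIs) pooled over mice, against 11524 in all 396, 975 in the 68 choroid-marker nuclei, 582 in 177 nuclei chosen by mural genes in the mirrored way, and 420 in all other nuclei. The 228 nuclei, called those without other-cell markers below because each list gave under 5 UMIs, thus carried the endothelial genes. The choroid-marker nuclei carried few of them. Nuclei just inside the rule, with a sum of 3 (n = 63), stood at 3062 CPM, and those with a sum of 10 or more (n = 139) at 20337. Just outside, nuclei with a sum of 2 from 2 genes (n = 100) stood at 1502 and those with 3 or more from 1 gene (n = 82) at 2277. Choroid plexus markers were at 14567 CPM just inside the rule and at 18261 and 21221 just outside, so the border of the rule lay among choroid-marker nuclei. Results are given for all 396 nuclei first and then for the 228, a set chosen after the data were seen.

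**Figure D1:**
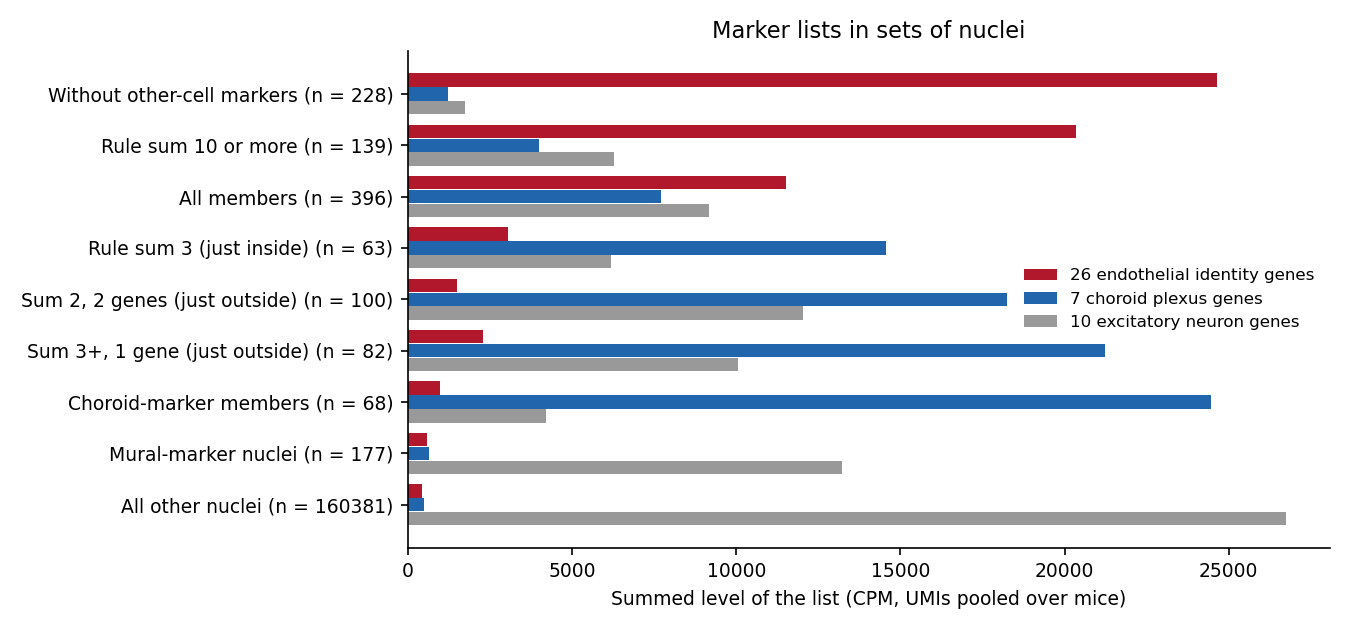
Summed level of 3 marker lists in sets of nuclei, in CPM with UMIs pooled over mice (horizontal axis). Bars are pooled values with no error. Identity genes stand at 24651 CPM in the 228 nuclei without other-cell markers and at 420 CPM in all other nuclei, and choroid plexus genes are highest in the 68 choroid-marker nuclei.

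The rule genes themselves, in CPM per mouse after TMM normalization (trimmed mean of M-values, which scales libraries to each other), ran from 640 to 11614 for Flt1 (median 2507), from 170 to 2731 for Cldn5 (median 731), from 919 to 3663 for Mecom (median 1312) and from 405 to 3264 for Slco1a4 (median 1369). By state, the medians of awake, isoflurane and ketamine mice were 2358, 2609 and 2222 for Flt1, 603, 1236 and 799 for Cldn5, 1401, 1275 and 1231 for Mecom, and 1814, 998 and 1349 for Slco1a4. Mecom and Slco1a4 stood at 1096 and 577 pooled CPM in the choroid-marker nuclei too, whereas Flt1 and Cldn5 stood there at 17.3 and 5.77.

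The genes most particular in level to the endothelial-marker nuclei, by the ratio of CPM to that in all other nuclei, were Adgrl4, an adhesion receptor of endothelium, at 121 times, followed by Zfp366 (96.7), Cyyr1 (86.4), Tinagl1 (81.9), Xdh (80.9), Eng (78.6), Nostrin (74.6), Acvrl1 (72.0), Ctla2a (71.3) and Adgrf5 (70.4). Eng and Acvrl1 are TGF-beta family receptors of endothelium, and Nostrin regulates the endothelial nitric oxide synthase. Since the nuclei were picked by genes that go with these, the ratios are a description and were not tested.

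Barrier genes were present at low counts. In the 228 nuclei Slc2a1, the glucose transporter of the barrier, stood at 2664 CPM against 24.0 in all other nuclei. Slco1c1, which carries thyroid hormone, stood at 1233 CPM against 44.1, and Slc7a5, the large neutral amino acid transporter, at 807 against 17.7. The taurine transporter Slc6a6 stood at 952 CPM against 166. Bsg, the glycoprotein basigin that chaperones lactate carriers, stood at 4075 CPM against 147. Among efflux pumps, Abcb1a (P-glycoprotein) stood at 796 CPM against 6.55, Abcg2 at 859 against 18.9, and Abcc4 at 578 against 29.6, whereas the cholesterol exporter Abca1 stood at 88.5 against 34.0. These counts cannot rank genes by abundance, because intronic reads were counted and long genes collect more of them.

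Among junction genes, Tjp1, the scaffold ZO-1, stood at 1520 CPM in the 228 nuclei and 463 in all other nuclei, and Cgnl1, a cingulin-like junction protein, at 364 against 6.36. The junction scaffold Magi1 and the polarity protein Pard3 stood at 427 and 499.6 CPM against 211 and 192. Among receptors, Ptprb, the phosphatase of the angiopoietin receptor, stood at 1624 CPM against 10.9, and Bmpr2, the type II BMP receptor, at 817 against 127. Eng stood at 859 CPM against 4.67, and the growth factor Pdgfd at 900.3 against 34.3. Lef1, which acts with beta-catenin, stood at 1025 CPM against 13.0, and the flow-induced factor Klf2 at 1181 against 12.7. Apcdd1, an inhibitor of Wnt signalling, stood at 421.5 CPM against 14.8, beta-catenin (Ctnnb1) at 427 against 48.0 and the coreceptor Lrp6 at 151 against 97.7. The transcription factor Ebf1 stood at 1358 CPM against 27.4. Tcf4, at 1436 CPM against 1481, and Nfib, at 697 against 566, were about as high in all other nuclei. Genes of the vessel's matrix and of signals to blood cells were also seen. Fibronectin (Fn1) stood at 921 CPM in the 228 nuclei against 92.2, the protease inhibitor Timp3 at 900.3 against 101, Itga6, a laminin-binding integrin chain, at 609 against 26.5, and Col4a2 at 489 against 49.6. The chemokine Cxcl12 stood at 1228 CPM against 15.0, the NF-kappaB inhibitor Nfkbia at 583 against 22.7, and the class I histocompatibility genes H2-D1 and H2-K1 at 525.6 and 390.3 against 14.9 and 14.0. Igf1r, the insulin-like growth factor receptor, stood at 2633 CPM against 194, the dynamin Dnm3 at 1119 against 233 and Picalm at 541 against 113. Prkg1 and Itpr1, of cyclic GMP and calcium signalling, stood at 1051 and 265 CPM against 871 and 236.

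Genes of the arterial, venous and capillary lists were all seen. Among arterial genes Arl15 had UMIs in all 20 mice and Mgp in 9, among venous genes Eogt in all 20 and Vwf in 13, and the capillary genes Sgms1 and Spock2 in all 20. Edn1, which encodes the vasoconstrictor endothelin, had UMIs in 13 mice and stood at 161 CPM in the 228 nuclei against 1.05, and the venous-list genes Eogt and Il1r1 stood at 312 and 239 CPM against 13.7 and 13.9. Dll1, Aplnr, Selp, Sele, Cxcl1 and Cxcl10 had 0 UMIs among 591461, which allows up to 5.07 CPM by counting error.

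Depth and labels set the limits. The mice gave 4 to 100 endothelial-marker nuclei each, with 4769 to 155868 UMIs, and only 8 mice gave at least 20. Mouse 10 of fAD-Awake alone held 25.3% of the nuclei. No cell barcode was shared between endothelial-marker nuclei of different mice (0 over 190 pairs of mice). Over all nuclei, a pair of mice shared a median of 17 barcodes and at most 35. Whether barcodes of endothelial-marker nuclei recurred among the other nuclei of another mouse was not tested. Prnp, whose mouse promoter is known to drive both transgenes of this line, stood at 63.6 to 433 CPM over all nuclei of fAD mice (median 190, n = 9) and at 42.2 to 196 in WT mice (median 78.5, n = 11). The ranges overlapped, with fAD mice 11, 17 and 20 at 63.6, 74.5 and 99.7 CPM and WT mouse 14 at 196, so genotypes are given as labelled. App, whose human form the line carries, stood at 423 to 623 CPM in fAD and 409 to 543 in WT mice, which overlapped as well. The mitochondrial share of UMIs in the endothelial-marker nuclei was 0.0985% to 4.04% in awake, 0.309% to 3.30% in isoflurane and 0.105% to 0.128% in ketamine mice.

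The share of endothelial-marker nuclei was not shown to differ between the states. It was 0.300% ± 0.270 in awake mice (mean ± SD, n = 9), 0.191% ± 0.0900 under isoflurane (n = 7) and 0.200% ± 0.0702 under ketamine (n = 4). Awake mice ran from 0.0420% to 0.946% with a median of 0.290%, and isoflurane mice from 0.0743% to 0.325% with a median of 0.199%. The 4 ketamine mice stood at 0.117%, 0.283%, 0.178% and 0.223%. All 3 states overlapped, and the highest awake value, in mouse 10, lay far above the other awake mice. The 95% exact binomial interval of a single mouse, which covers counting error only, ran from 0.770% to 1.15% in mouse 10 and from 0.0114% to 0.107% in mouse 17.

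In 2-sided exact permutation tests over mice, p was 0.360 for isoflurane against awake, 0.545 for ketamine against awake, 0.848 for ketamine against isoflurane and 0.279 for fAD (0.299% ± 0.269, n = 9) against WT (0.195% ± 0.0815, n = 11). Adjusted over these 4 comparisons the values were 0.720, 0.727, 0.848 and 0.720. The median UMIs per nucleus of a mouse were 1311 to 3169 in awake, 1495 to 2504 in isoflurane and 1235 to 1530 in ketamine mice. With every nucleus thinned to 500 UMIs the rule took 405 nuclei and the difference between isoflurane and awake was -0.160 percentage points (exact permutation p = 0.438).

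**Figure D2:**
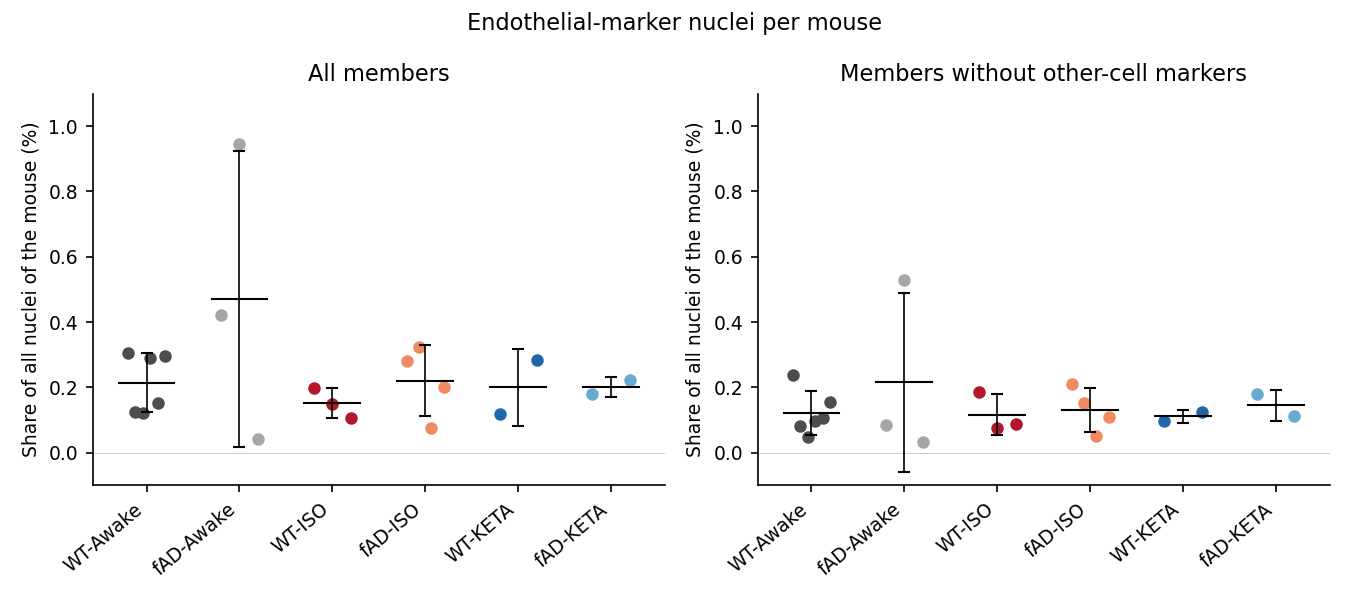
Share of nuclei taken as endothelial-marker nuclei in each mouse, in percent of the nuclei of that mouse, for all 396 nuclei (left) and for the 228 without other-cell markers (right). Points are mice, and bars are the mean ± SD of each group. All groups overlap, and mouse 10 of fAD-Awake stands highest at 0.946%.

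Under isoflurane a set of genes rose in the endothelial-marker nuclei. UMIs were summed per mouse and compared between isoflurane (n = 7) and awake mice (n = 9), averaging both genotypes. Of 854 genes with enough counts, 24 rose (2.81%) and 0 fell (0%) at an adjusted p under 0.05 in edgeR's quasi-likelihood test with Benjamini-Hochberg adjustment, and 150 had an unadjusted p under 0.05. DESeq2 called 41 genes, of which 39 rose and 2 fell, and these held all 24. The rises were 2.70- to 24.2-fold. The median log2 change of all 854 genes was -0.16, or -0.31 with relative log expression factors in place of TMM. All 24 genes stood higher under either scaling, and 16 of them were called with the relative log expression factors.

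The count rested on few mice. Without mouse 16 it was 44, but it fell to 1 without mouse 2, 4 or 17, to 2 without mouse 10, to 3 without mouse 14 and to 4 without mouse 18. It was 14 without mouse 1, 13 without mouse 3 or 28 and 10 without mouse 27. Akap12 was called in all 20 of these fits, and Ctla2a and Adamts9 in 17 and 16. The methods state that tissue was processed in batches of 4 with samples from each group, but no label gives the batch of a mouse. When the run of neighbouring mouse numbers was added to the fit, only Akap12 was called, while the log2 changes of the 24 genes were 1.23 to 4.54 and the adjusted p of the other 23 were 0.0991 to 0.221 (edgeR). The p-values measure the spread between mice.

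The promoters of the called genes are shown next because the genes passed the same comparison. Of the 24 genes, 20 were matched to a RefSeq promoter (GRCm38.p6), Akap12 and Anxa3 not among them. Windows ran from 250 bases before to 50 after the start and were searched on both strands for the CArG box, the TEAD motif GGAATG, the AP-1 motif TGANTCA, the forkhead motif GTAAACA and the hypoxia response element ACGTG. The CArG box, which binds serum response factor, stood in 2 of the 20 genes (Vcl and Dgkh), against 1.81% of 27025 genes with a promoter. The TEAD motif stood in 4 (Ccn1, Swap70, Itgb1 and Vcl) against 16.6%, AP-1 in 4 (Rgs12, Plaur, Tmcc3 and Ctla2a) against 8.97%, the forkhead motif in 1 (Swap70) against 4.05%, and the hypoxia response element in 6 against 21.8%. No test was made on these few genes. A match is a string of letters and not a bound site. Capitals mark the CArG box, TEAD and AP-1 matches in 3 genes (the hypoxia response element of Vcl is left in lower case), with Vcl holding a CArG box 227 and a TEAD motif 143 bases before the start at chr14:20929148-20929447 (+), Ccn1 a TEAD motif on the other strand 103 bases before it at chr3:145649936-145650235 (-), and Ctla2a an AP-1 motif 188 bases before it at chr13:60936517-60936816 (-).
Vcl: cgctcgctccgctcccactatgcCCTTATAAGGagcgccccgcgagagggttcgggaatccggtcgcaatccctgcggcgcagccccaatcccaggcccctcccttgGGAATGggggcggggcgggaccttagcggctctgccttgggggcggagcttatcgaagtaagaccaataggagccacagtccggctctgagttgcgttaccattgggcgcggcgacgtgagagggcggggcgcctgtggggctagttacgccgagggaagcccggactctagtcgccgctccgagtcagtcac
Ccn1: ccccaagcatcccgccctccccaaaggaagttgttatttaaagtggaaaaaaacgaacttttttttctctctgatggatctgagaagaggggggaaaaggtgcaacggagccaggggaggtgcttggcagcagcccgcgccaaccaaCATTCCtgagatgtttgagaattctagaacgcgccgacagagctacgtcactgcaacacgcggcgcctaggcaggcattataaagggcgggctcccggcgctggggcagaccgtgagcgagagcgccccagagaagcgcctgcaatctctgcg
Ctla2a: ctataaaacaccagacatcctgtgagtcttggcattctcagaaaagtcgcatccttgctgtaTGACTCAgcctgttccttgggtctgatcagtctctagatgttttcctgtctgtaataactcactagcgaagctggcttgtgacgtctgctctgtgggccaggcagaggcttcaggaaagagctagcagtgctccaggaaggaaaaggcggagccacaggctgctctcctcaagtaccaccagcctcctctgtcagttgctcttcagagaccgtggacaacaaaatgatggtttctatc

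Akap12, a scaffold that anchors protein kinase A beneath the membrane (chr10:4266380-4359470, +), had the smallest p and the highest fitted log2 change. Its level per mouse, in TMM-normalized CPM, ran from 0 to 181 in awake mice (median 50.2, 18 UMIs in all) and from 468 to 2635 under isoflurane (median 870, 193 UMIs). Ketamine mice stood at 460, 53.8, 536 and 75.5 CPM with 12 UMIs. All 7 isoflurane mice lay above all 9 awake mice. The log2 change was 4.59 ± 0.65 (SE), with an adjusted p of 0.000493 in edgeR's test, and was 4.53 in WT and 4.65 in fAD mice. After thinning to 500 UMIs a UMI of Akap12 stood in 3.59% of 223 awake, 38.3% of 120 isoflurane and 13.2% of 53 ketamine nuclei, or 6.73%, 51.7% and 15.1% without thinning, against 1.07% to 1.33% of all other nuclei, whose depth was greater before thinning.

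Among secreted and surface proteins, Adamts9, a matrix metalloproteinase that cleaves versican (chr6:92772699-92943492, -), ran from 0 to 100 CPM in awake mice (median 50.8) and from 47.5 to 2465 under isoflurane (median 313). The groups overlapped through mouse 16, at 47.5 CPM (1 UMI). Isoflurane mice 11 and 15 stood just above the awake range, at 110 and 109 CPM (4 UMIs and 1 UMI). Mice 3, 4 and 18 held the highest levels, at 2465, 1513 and 1113 CPM. Its log2 change was 3.95 ± 0.77 with an adjusted p of 0.0142 by edgeR. Ccn1, a matrix protein induced by stretch (chr3:145646976-145649981, -), had 3 UMIs over all awake mice and 45 over isoflurane mice, a ratio of 35.1 in pooled CPM (95% exact counting interval 11.3 to 176). The fitted log2 change of 4.23 ± 0.88 (edgeR, adjusted p = 0.0184) depends on the prior count because the awake counts were so low. Plaur, the urokinase receptor, was seen in 4 awake and 7 isoflurane mice and rose by 3.34 ± 0.85. Itgb1, the beta-1 integrin chain, rose by 1.58 ± 0.37, from a median of 180 to 428 CPM.

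Ctla2a, an inhibitor of cysteine proteases (chr13:60934155-60936625, -), ran from 24.2 to 701 CPM in awake mice (median 180) and from 524 to 4149 under isoflurane (median 1522). Only awake mouse 12 reached the isoflurane range. The log2 change was 3.17 ± 0.61 (edgeR, adjusted p = 0.0142). Ctla2a has a near-identical neighbour, Ctla2b, and overlaps other transcripts, so its counts are uncertain.

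Slc2a1, the barrier glucose transporter (chr4:119108711-119137983, +), ran from 320 to 1406 CPM in awake mice (median 771) and from 909 to 6375 under isoflurane (median 2500). Ketamine mice stood at 1379, 592, 2233 and 679 CPM. Awake mice 1 and 19 reached above isoflurane mouse 11, and the other 6 isoflurane mice lay above all awake mice. The log2 change was 2.09 ± 0.48 (edgeR, adjusted p = 0.0194). Slc2a1 was held by 32.7% of awake, 62.5% of isoflurane and 43.4% of ketamine nuclei after thinning, and by 48.4%, 80% and 56.6% before it, against 1.01% to 1.33% of thinned other nuclei. Adgrl4 rose by 2.02 ± 0.47 (adjusted p = 0.0201), from a median of 606 to 2948 CPM, and Adgrl2, a latrophilin, by 1.66 ± 0.41.

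Vcl, the focal adhesion protein vinculin, rose by 2.79 ± 0.63, from a median of 84.3 to 281 CPM. Myh9, the heavy chain of non-muscle myosin, rose by 1.65 ± 0.43. Swap70, which binds actin and Rac, rose by 1.79 ± 0.48.

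Clic4, an intracellular chloride channel protein, ran from 0 to 552 CPM in awake and from 771 to 2834 in isoflurane mice, with no overlap, and rose by 2.27 ± 0.51. Anxa3, a phospholipid-binding annexin, rose by 2.33 ± 0.52, and Pakap, a locus that joins a paralemmin to an anchor of protein kinase A and overlaps a second entry of the same name, by 1.78 ± 0.38. In both, all isoflurane mice lay above all awake mice. Such separation held for 5 of the 24 genes, among them Akap12, Pakap, Anxa3 and Clic4, and for 7 of all 854 (0.82%), with 0 genes (0%) separated the other way. Further calls were Rgs12 and Rapgef1, regulators of G proteins and of Rap, at 2.41 ± 0.53 and 1.89 ± 0.41, Plxna2, a semaphorin receptor, at 2.02 ± 0.53, Mef2a, a transcription factor, at 1.56 ± 0.38, Tmcc3 at 1.53 ± 0.41, Dgkh, a diacylglycerol kinase, at 1.45 ± 0.33, and Picalm, a clathrin adaptor known for amyloid transport across vessels, at 1.43 ± 0.37.

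**Figure D3:**
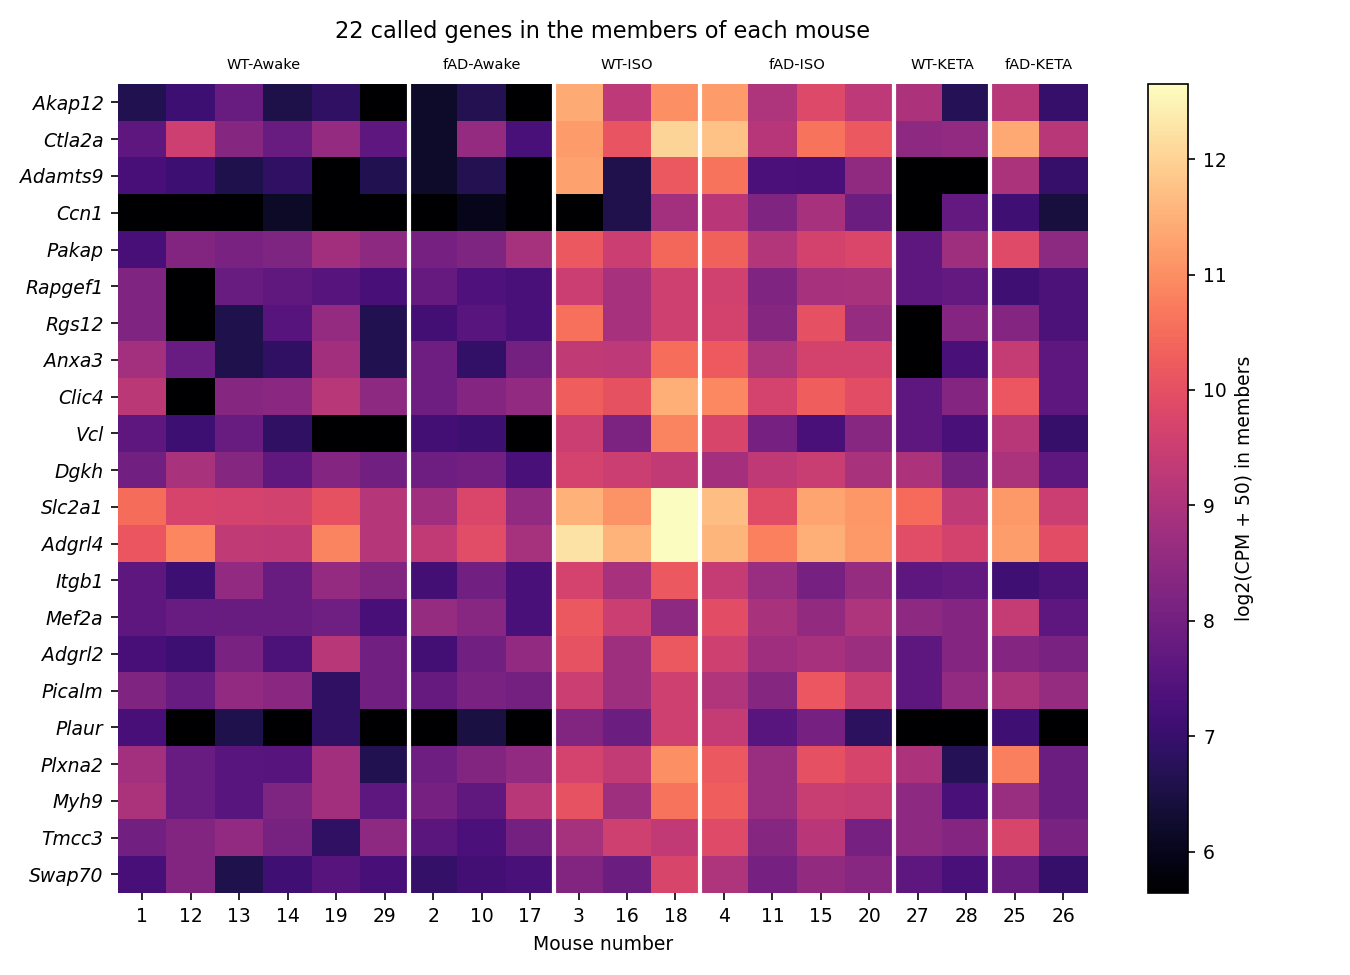
Levels of 22 of the called genes in each mouse as log2(CPM + 50), with CPM after TMM normalization of the UMIs summed over all 396 nuclei. Columns are mice by group. The 7 isoflurane columns are brighter than the 9 awake columns, mice 3, 4 and 18 most, and ketamine mouse 25 is brighter than the other 3 ketamine mice.

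**Figure D4:**
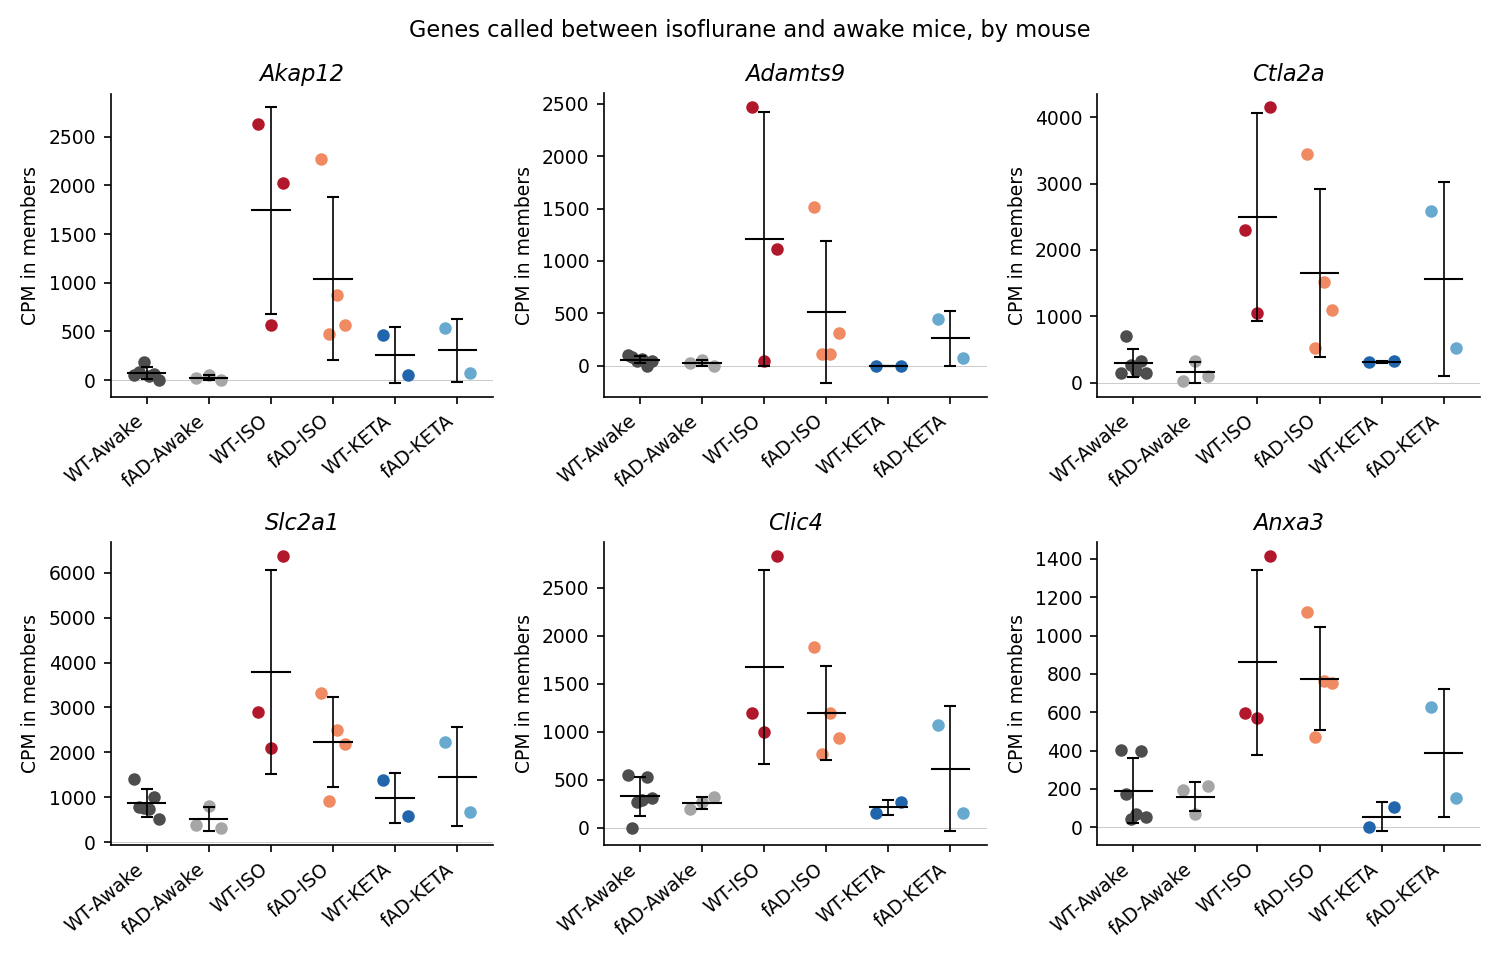
CPM after TMM normalization of 6 called genes in each mouse, by group (linear axes). Points are mice, and bars are the mean ± SD. Akap12, Clic4 and Anxa3 separate all isoflurane from all awake mice, and Adamts9, Ctla2a and Slc2a1 overlap through 1 or a few mice.

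The mice differed among themselves. Mouse 18 was highest among isoflurane mice in 15 of the 24 genes, and mouse 11 lowest in 12. At least 5 UMIs of choroid plexus markers were found in 42 of 223 awake, 11 of 120 isoflurane and 15 of 53 ketamine nuclei. All 11 of the isoflurane ones came from the 30 nuclei of mouse 11. The summed choroid plexus markers ran from 0 to 24129 CPM in awake mice (median 427), from 47.5 to 10360 in isoflurane mice (median 156) and from 0 to 17889 in ketamine mice (median 5832). The 26 identity genes ran from 6177 to 22383 CPM (median 10524), from 8651 to 23073 (median 17390) and from 6407 to 25193 (median 8388) in the same order, so isoflurane mice had more endothelial and fewer choroid transcripts at the median. None of the tested marker genes of the other classes was called in the edgeR test. Markers of oligodendrocyte precursors, microglia and macrophages, mural cells and fibroblasts all had too few counts to be tested, so no call was possible there. The median log2 change was 0.07 in the 22 identity genes tested and -3.16 in the 4 choroid plexus genes tested. Of the 24 rises, 13 could be measured again without other-cell nuclei, as given further on. The rest, Ccn1, Vcl and Plaur among them, had too few counts there.

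In each of the 4 runs of consecutive mouse numbers that held both states (1 to 4, 10 to 13, 14 to 17, and 18 to 20), all 24 genes stood higher in isoflurane than in awake mice when pooled, as did 13.9% of all 854 genes (119). As the genes were called on these same mice, this is a description. Without mice 1 to 4, which held 0.939% to 1.78% mitochondrial UMIs over all nuclei against 0.0353% to 0.336% in the other 16 mice, only 1 of 735 genes was called, again Akap12, at 3.79 on the log2 scale. Slc2a1 stood at 1.97, Adgrl4 at 1.85 and Anxa3 at 2.65 in that fit without passing.

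By role, the gene lists gave these counts, beside 42.9% of all 854 genes with a positive log2 change (366) and 2.81% called. All 9 tested genes of basement membrane and integrins had positive log2 changes (median 1.30), and 1 passed the test (Itgb1). Col4a1 and Col4a2, the collagen chains of the vessel's basement membrane, stood at 1.59 ± 0.52 and 1.92 ± 0.59 without passing. All 5 immediate-early genes tested had positive changes (median 2.42), with Ccn1 called and Klf4 (2.42 ± 0.70), Dusp1 (2.76 ± 0.84), Klf6 (2.05 ± 0.70) and Klf2 (1.25 ± 0.62) not called. Of 8 glucocorticoid-responsive genes 7 were positive (median 1.42), with Slc2a1 called and Cdkn1a at 3.31 ± 0.90 (adjusted p = 0.0512) just past the threshold. The 3 hypoxia-responsive genes were positive (median 1.00), again with Slc2a1 as the call. These medians stand beside -0.16 over all genes, and the lists share genes. A gene could pass the count filter through the state where it stood high. Ccn1 did so through isoflurane mice alone, with 45 UMIs there and 3 in awake mice. Other called genes were low in awake mice too. Adamts9, Plaur and Vcl had 17, 10 and 28 UMIs there, against 114, 47 and 80 in isoflurane mice. The highest awake mouse stood at 333 CPM for Itgb1 and 317 for Picalm, and the highest isoflurane mouse at 1113 and 1087. How many calls passed the filter only through isoflurane mice was not counted. The counts by list are thus in part set by the filter and are a description. The filter bears in the same way on the calls over all genes.

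Other endothelial lists held few or no calls. Junction genes had 7 of 9 positive (median 0.39, 0 called), endothelial transcription factors 8 of 9 (0.41, 0 called), VEGF, angiopoietin, Notch and TGF-beta genes 6 of 10 (0.97, 0 called) and solute carriers 5 of 9 (0.30, with Slc2a1 called). Both Wnt genes tested were positive (median 0.29, 0 called), and vasoactive genes had 5 of 10 (0.06, 0 called). All 3 ABC pumps tested were negative (median -0.12), Abcb1a at -0.12 ± 0.44 and Abcg2 at -0.04 ± 0.47. The 3 arterial genes were negative as well (median -0.82), and venous genes had 1 of 4 positive (-0.59), capillary genes 4 of 7 (0.05), leukocyte adhesion genes 2 of 4 (0.17), caveolar and transcytosis genes 2 of 7 (-0.23, with Picalm called), FOXO and insulin genes 1 of 5 (-0.23) and clock genes 0 of 1 (-0.51). In each of these lists except the capillary one, where 7 of 13 genes were tested, most genes had too few UMIs to be tested.

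In some genes the change differed from that in all other nuclei of the same mice. In the other nuclei the 24 genes moved by -0.36 to 1.06 on the log2 scale. The difference between the changes, taken within each mouse and tested with limma (Benjamini-Hochberg), passed in 45 of 854 genes (5.27%), 44 with the more positive change in endothelial-marker nuclei and 1, Maml2, with the more negative one. Of the 24 called genes, which were chosen on the same contrast, 18 were among them, with Akap12 first (difference 3.05 ± 0.43, adjusted p = 0.000369). Ctla2a, Adgrl4, Ccn1, Pakap, Anxa3 and Plaur were not. Others among the 45, named after their values were seen, were Sik1 (2.17 ± 0.53), S1pr1, the receptor for sphingosine-1-phosphate (1.77 ± 0.44), Bmpr2 (1.54 ± 0.39), Itga6, the integrin chain (1.30 ± 0.34), and Neat1, a nuclear long RNA (1.65 ± 0.42). The count was 6 without mouse 4, 11 without mouse 18, 13 without mouse 10, 18 without mouse 14 or 17, 22 without mouse 1 and 24 without mouse 3. It was lower still with mice 1 to 4 left out together, and it also fell with a prior count of 0.5, as given in the last section. In 177 nuclei with mural genes, Akap12 stood at 99.5 CPM in awake (10 UMIs) and 236 CPM in isoflurane mice (18 UMIs), pooled and not tested.

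**Figure D5:**
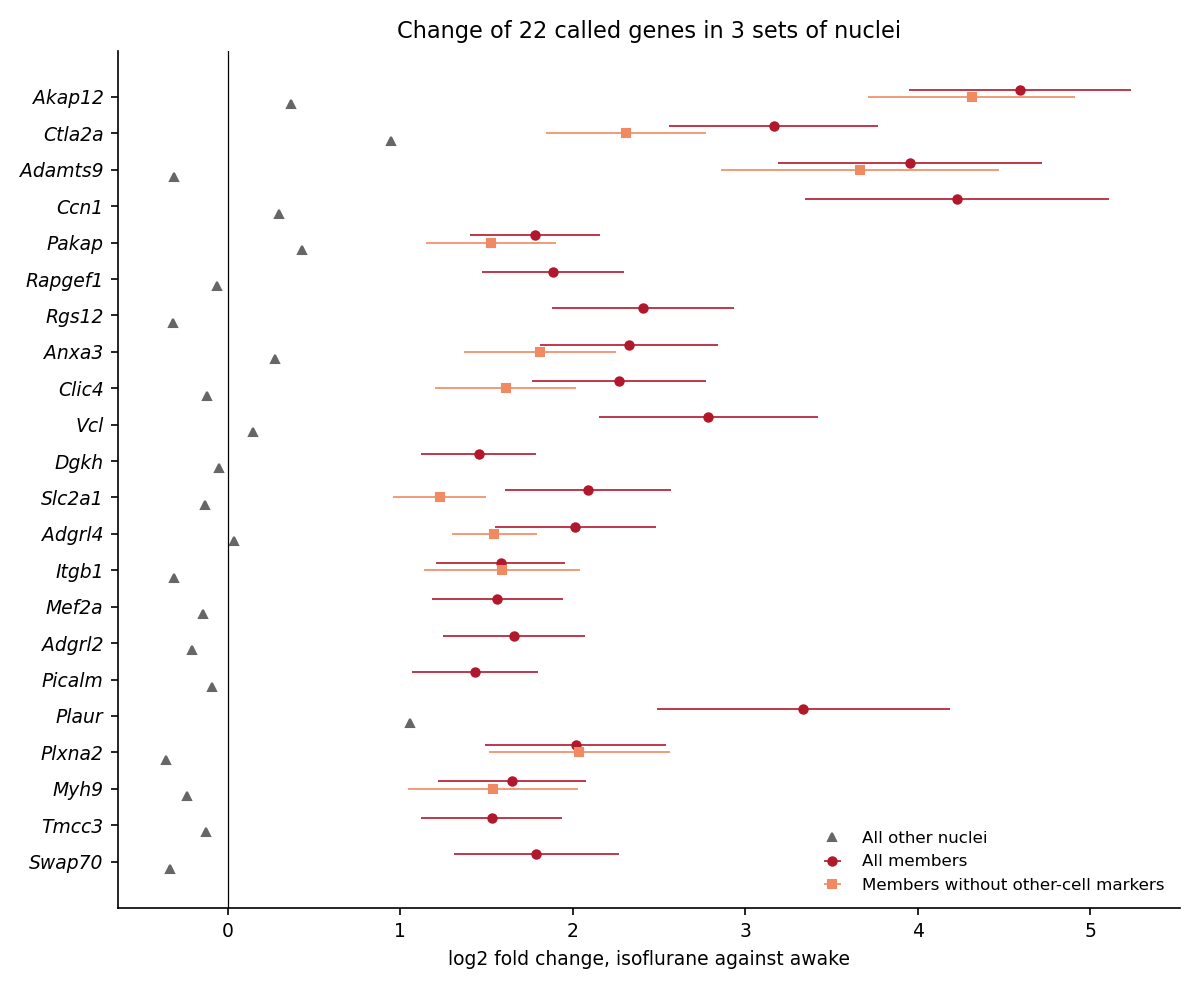
Log2 change from awake to isoflurane (horizontal axis) of 22 of the called genes in all 396 endothelial-marker nuclei (circles), in the 228 without other-cell markers (squares, where tested) and in all other nuclei (triangles, no error drawn). Bars are SE. All 22 circles lie at 1.43 or above, and the triangles lie between -0.36 and 1.06.

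With the 168 nuclei holding other-cell markers left out, 121 genes had enough counts. In edgeR's test 22 rose (18.2%) and 17 fell (14%) from awake to isoflurane, and with relative log expression factors 25 rose and 14 fell. All 39 kept their direction there, and Pltp, Igf1r and Slc7a5 were no longer called. The 228 nuclei numbered 3 to 56 per mouse, and mouse 10 gave 56 of the 118 awake ones. This fit was not repeated with single mice left out, without mice 1 to 4 or with runs of mouse numbers as a term. How its calls depend on those steps was not tested. Of the 24 genes, 13 could be tested and all 13 rose, by 1.23 to 4.32, among them Akap12 (4.32 ± 0.60, adjusted p = 4.58e-05), Adamts9 (3.67 ± 0.81), Ctla2a (2.31 ± 0.46), Adgrl4 (1.54 ± 0.25) and Slc2a1 (1.23 ± 0.27). In this set Akap12 ran from 0 to 647 CPM in awake mice (median 0, 9 UMIs) and from 1063 to 3417 in isoflurane mice (median 1846, 158 UMIs), with no overlap. Further genes that rose were Neat1 (2.73 ± 0.52), Col4a2 (1.89 ± 0.63) and the cytoplasmic actins Actb (1.41 ± 0.49) and Actg1 (1.53 ± 0.53).

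The genes that fell in these 228 nuclei were led by Frmd5, a FERM-domain protein, at -3.61 ± 0.63 (edgeR, adjusted p = 0.000389), with 99 UMIs in awake (1008 pooled CPM) and 6 in isoflurane mice (89.4). Srgap2, which curbs Rac, stood at -2.19 ± 0.45, Maml2, a Notch coactivator, at -2.32 ± 0.54 and Rundc3b at -1.98 ± 0.50. Plcb1, a phospholipase C, fell by 1.27, from a median of 2304 to 973 CPM. The transcription factors Foxp1 and Ebf1 fell by 1.26 and 1.29, Itm2a by 1.45, Ptprb by 0.97, the amino acid transporter Slc7a5 by 1.09 and the receptor Igf1r by 0.82. In all 396 nuclei these genes had negative changes as well but none was called, with Itm2a at -0.01 and Ptprb at -0.22.

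Ketamine gave no called gene in all 396 nuclei. Set against awake mice, 0 of 854 genes (0%) passed in edgeR, where the lowest adjusted p was 0.298 and an unadjusted p under 0.05 was reached by 54, and DESeq2 called 7. The smallest p-values, none of them passing, belonged to AY036118 (2.71 ± 0.65), a transcript that overlaps ribosomal RNA repeats, and to the mitochondrial genes mt-Cytb and mt-Nd2 (-3.69 ± 1.00). mt-Cytb had 534 UMIs in awake and 1 in ketamine mice, a ratio of 99.9 in pooled CPM (95% exact counting interval 17.8 to 3951). AY036118 ran from 107 to 1016 CPM in awake mice and stood at 1991, 808, 11793 and 1434 CPM in the ketamine mice, and the mitochondrial share of UMIs was 0.105% to 0.128% in the latter. Awake mice 1, 2 and 10 held 468 of the 534 mt-Cytb UMIs. The only awake mouse in the run of numbers that held all ketamine mice (25 to 29), mouse 29, had 1 mt-Cytb UMI, a mitochondrial share of 0.0985% and the highest awake level of AY036118 (1016 CPM), so ketamine and this run cannot be told apart for these transcripts. The 24 isoflurane genes had smaller changes under ketamine, with a median of 0.45 against 2.02 under isoflurane. They were chosen by their isoflurane change, so this gap is in part set by the choice and is a description. Of the 24, 18 stood above awake, and the lowest adjusted p was 0.657 (edgeR). Both changes use the same 9 awake mice. With runs of mouse numbers as a term, 20 of the 24 stood above awake under ketamine and 4 above isoflurane. The ketamine change differed from that in all other nuclei in 0 of 854 genes (0%) by limma, with an unadjusted p under 0.05 in 60.

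Compared directly, ketamine and isoflurane mice gave 0 calls (0%) in edgeR, where an unadjusted p under 0.05 was reached by 111 genes and the lowest adjusted p was 0.114, and 14 calls in DESeq2. The 24 genes were chosen on the same isoflurane mice, so their values here are a description. All stood lower under ketamine than under isoflurane, with Akap12 at -2.50 ± 0.77. With runs of mouse numbers as a term, 4 of the 24 stood higher under ketamine. The 4 ketamine mice were split, since mouse 25 of fAD-KETA reached 2591 CPM in Ctla2a and 2233 in Slc2a1 and the other 3 lay within the awake range in these 2 genes. Mouse 25 was also the one ketamine mouse in which all 11 nuclei were free of other-cell markers.

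Without other-cell nuclei, ketamine against awake gave 2 genes that rose (1.65%), Gm42418 and AY036118, both overlapping ribosomal RNA repeats, and 4 that fell (3.31%), Slc7a5, Srgap2, mt-Nd2 and mt-Cytb, of 121. Slc7a5 stood at -3.76 ± 0.90 (edgeR, adjusted p = 0.0180), with 112 UMIs in awake (1141 pooled CPM), 35 in isoflurane (521) and 8 in ketamine mice (298). Single ketamine mice ran from 0 to 511 CPM, and the highest lay inside the awake range of 258 to 2354. Ketamine against isoflurane gave 6 that stood higher (4.96%) and 7 lower (5.79%), or 5 and 14 with relative log expression factors. With TMM the lower ones held Akap12 (-2.02 ± 0.65, edgeR, adjusted p = 0.0498), Adgrl4 (-1.32 ± 0.31) and Tspan5. The higher ones held Abcc4, an efflux pump (2.56 ± 0.60), Plcb1 and Arl15. The higher ones also held Gm42418, AY036118 and Cmss1, and the lower ones mt-Nd2 and mt-Cytb. No isoflurane mouse lay in the run of numbers 25 to 29, and mouse 29 was the only awake mouse in it. Ketamine against isoflurane can thus be told apart from this run only through that mouse. This was not tested without other-cell nuclei.

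Genotype gave no called gene. Between fAD and WT mice edgeR gave 0 calls (0%), and so did DESeq2. An unadjusted p under 0.05 was reached by 15 genes in edgeR, and the lowest adjusted p was 1.00. The smallest p-values, not passing, belonged to Unc13b (1.27 ± 0.41), Sh3bgrl (-1.96 ± 0.66) and Frmd5 (1.38 ± 0.50). The response to isoflurane was not shown to differ by genotype. The interaction gave 0 calls (0%) by edgeR and 0 by DESeq2, with 11 at an unadjusted p under 0.05, and its smallest p-values, not passing, belonged to Vim (3.36 ± 1.02), Brinp3 (-5.84 ± 1.86) and Rbpms (4.06 ± 1.34). The log2 changes of the 24 genes were 1.33 to 4.53 in WT and 0.99 to 4.81 in fAD mice. Both comparisons rest on genotype labels that Prnp did not bear out in every mouse.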

How the data were processed

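For each mouse the authors deposited a single matrix of whole-number UMI counts, genes by nuclei, which the labels trace to Cell Ranger 5.0.0 on mm10. The methods state that introns were counted and name CellBender, which the file headers do not. The kit is given as another version in the methods than in the labels. The labels give no batch.

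Nuclei were selected by the rule given in the report, and their counts were summed per mouse (20 mice, 6 groups). The members, gene lists and tests were chosen with earlier results of these data known. Sums were fitted with edgeR 4.0.16 (R 4.3.3; TMM, filterByExpr, robust quasi-likelihood test, Benjamini-Hochberg adjustment, threshold 0.05). The common biological coefficient of variation was 0.692. The rule genes were left out of tests. Mice with under 20 nuclei were to be left out, but this would have left WT-ISO and WT-KETA with no mouse, so all were kept. Differences from other nuclei were tested with limma 3.58.1 (prior count 2) and shares with exact permutation tests (scipy 1.17.1). Doublets were scored per mouse from artificial pairs (scikit-learn 1.9.0), and 23 of the 396 nuclei were in the top 6%. They were kept. The 200-gene minimum of the methods and the MAST test on nuclei were not applied.

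CPM per mouse are TMM-normalized, and pooled CPM and those of the 228 nuclei without other-cell markers are not. On counts drawn for 854 genes, the isoflurane comparison recovered 53% of 100 genes changed 3-fold and 92% of 100 changed 8-fold, and 3.97% of its calls were false. The drawn counts held no effect of runs of mouse numbers and no mixture of cell classes. These rates therefore do not carry over to the calls in the real counts. Named genes are the rule genes, called list genes and up to 4 of highest mean CPM per endothelial list, the 10 of smallest adjusted p per direction (or 3 of smallest p where under 3 were called), the 10 of largest ratio to other nuclei over 100 CPM, and Prnp and App. Further calls are named after their values were seen. Coordinates are those of GRCm38, and promoters those of RefSeq. Alternatives were DESeq2 1.42.0, relative log expression factors, no gene filter, a stricter choice of nuclei, no high doublet scores, 500 UMIs per nucleus, no mice 1 to 4, runs of mouse numbers as a term, a prior count of 0.5 and each mouse left out. Fits without other-cell nuclei and of mice with at least 20 nuclei were added after seeing the data. Values of a few single genes are not reported here.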

Additional observations from a re-analysis of the deposited data

Results flagged for a closer look

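The share of nuclei and the levels of 22 called genes were searched for mice apart from their state, which gave 69 groups. The gap from the extreme mouse to its nearest neighbour was set against the range of that state. Of these groups, 13 had a mouse apart from the rest, where chance flags about 1 in 20 independent groups. Genes of the same mouse come from the same nuclei, so the groups are not independent. The causes were not tested.

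Among awake mice, mouse 10 stood apart with a share of endothelial-marker nuclei of 0.946%. Awake mouse 12 stood apart with 263 CPM of Swap70 (3 UMIs), 701 CPM of Ctla2a (8 UMIs) and 438 CPM of Dgkh (5 UMIs), from 9 endothelial-marker nuclei. Awake mouse 13 stood apart with 181 CPM of Akap12 (4 UMIs), below every isoflurane mouse.

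Among isoflurane mice, mouse 18 stood apart with 1822 CPM of Vcl, from 11 nuclei.

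Among ketamine mice, mouse 25 stood above the other 3 with 2323 CPM of Adgrl4, 1072 CPM of Clic4, 447 CPM of Adamts9 and 89.3 CPM of Plaur (1 UMI). The same mouse stood apart with 804 CPM of Tmcc3, 2591 CPM of Ctla2a and 536 CPM of Vcl. It had 11 nuclei, of which 0 held at least 5 UMIs of choroid plexus markers, against 0 of 6 in mouse 27, 9 of 20 in mouse 26 and 6 of 16 in mouse 28. The part of these nuclei in the differences was not tested.

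The change from awake to isoflurane differed between endothelial-marker nuclei and all other nuclei in 45 genes (limma, adjusted p under 0.05).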

How the results depend on the processing

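The 24 isoflurane calls (of 854 genes tested) became 41 with DESeq2, 7 (of 17443) with no gene filter and 1 (of 735) without mice 1 to 4. They were 1 with runs of mouse numbers as a term and 39 (of 121) without other-cell nuclei. The edgeR fit of the 8 mice with at least 20 nuclei called 0 of 1799 genes, with 60 of the 1799 at an unadjusted p under 0.05. The calls were 16 with relative log expression factors. They were 19 of 134 genes with a stricter choice of nuclei (13 higher and 6 lower) and 19 of 511 without high doublet scores (18 higher and 1 lower). With 1 mouse left out they ranged from 1 to 44. Over single genes, 359 of 664 alternative values kept the call, 305 lost it and 0 turned. Ketamine against awake, 0 at first, gave 7 calls with DESeq2, 5 with no filter, 2 with the stricter choice and 6 without other-cell nuclei. Ketamine against isoflurane, also 0, gave 14, 5, 6 and 13, and 2 without high doublet scores. Each stayed at 0 with any mouse left out, as did genotype and interaction. The 45 genes that differed from other nuclei became 27 with a prior count of 0.5 and 4 without mice 1 to 4, and 6 to 54 with 1 mouse left out. For ketamine the range was 0 to 1, with 1 gene without mouse 26. The share difference of ketamine and isoflurane, 0.00911 percentage points, turned to -0.000121 with the stricter choice, -0.000938 without high doublet scores and -0.0353 at 500 UMIs, and ranged from -0.0184 to 0.0369 with 1 mouse left out. The other share differences kept their sign. The causes were not tested. Depth limits all of this, with under 20 nuclei in 12 of 20 mice. No paired analysis was possible because each replicate number names 1 mouse and no groups share numbers, so the pairing could not come from them. A block was fitted on runs of mouse numbers instead, with the 1 call given above. The runs of mouse numbers stand in for the tissue batches of the methods, which no label assigns.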
